A study of Oryza sativa with 3 samples.

Results

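Transfer RNA-Gly with the anticodon GCC reads the glycine codons that end in a pyrimidine, and its small RNA fragments were followed here through pollen development of rice (Oryza sativa, cultivar Guichao No.2, grown in the field). The fragments were taken as every listed sequence with the anticodon label GCC, and there were 608 of them among 18424 distinct tRNA-derived sequences. The stages were the uninucleate microspore (UNM), a young haploid spore; bicellular pollen (BCP), formed when that spore divides into the large vegetative cell and the small generative cell inside it; and tricellular pollen (TCP), formed when the generative cell divides into the sperm. Each stage is represented by 1 small RNA library of spores purified on a sucrose gradient, and the labels name no genetic change or treatment in any group. The UNM list held 171 of the GCC sequences with 1440 reads, the BCP list 504 with 93893 reads, and the TCP list 301. The numbers listed for TCP do not exceed 20 for these sequences and were not taken as reads, so TCP enters by presence only. The lists hold tRNA fragments and no messenger RNAs, so the purity of the spores could not be checked against marker genes.

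A tRNA folds into a cloverleaf of an acceptor stem, a D arm, an anticodon arm and a T arm. Ribonucleases, in plants mostly of the RNase T2 family, cut it within the single-stranded loops, and cuts in the anticodon loop leave a long 5′ piece and a 3′ piece. In mammals, 5′ pieces of tRNA-Gly (GCC) are among the most abundant small RNAs of sperm. Fragments cut in or near the D loop are shorter, and in plants such short 5′ fragments have been found bound to Argonaute proteins.

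The lists give no parent sequence, so the fragments were joined by overlaps of at least 12 nt, which gave 2 sequences of 72 and 74 nt. Each was cut to a tRNA of 71 nt, 1 base behind the first stretch near its end that pairs with bases 1 to 7. They are shown first because every fragment described here is placed on one or the other, and capitals mark the anticodon.
GCACC type: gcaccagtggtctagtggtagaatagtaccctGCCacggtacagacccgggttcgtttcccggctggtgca
GCGAG type: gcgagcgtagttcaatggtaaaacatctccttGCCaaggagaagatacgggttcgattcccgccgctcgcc
The GCACC type begins like the cytosolic tRNA-Gly of plants. The compartment of the GCGAG type is not given by the lists and was not assigned. The tRNAs share 44 of 71 bases. In both, bases 1 to 7 pair with bases 64 to 70 in 7 of 7 pairs of the acceptor stem, which the rule for the cut required. Bases 26 to 30 pair with bases 38 to 42 in 5 of 5 pairs of the anticodon stem in both. The T stem, bases 47 to 51 with 59 to 63, has 5 of 5 pairs in the GCACC type and 4 of 5 in the GCGAG type. The D stem, taken as bases 10 to 13 with 21 to 24, is less complete, with 1 Watson-Crick and 2 G-U pairs of 4 in the GCACC type and 3 Watson-Crick pairs of 4 in the GCGAG type, so stops placed in the D arm rest on these assumed limits. The anticodon lies at bases 33 to 35 in both. The middle of each join is thin, since base 44 of the GCACC type and base 41 of the GCGAG type rest on 1 fragment each, and copies of a tRNA gene that differ elsewhere may be merged. A gene table of the rice assembly ASM3414082v1 lists 26 nuclear genes named tRNA-Gly (GCC), of 71 nt in 26 of 26, and none in organelles. Their sequences were not compared with the joins, so they were not assigned to either type. Positions below are counted from 1 at the 5′ end of these sequences.

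Of the 608 fragments, 575 matched a parent exactly, 33 differed from one by 1 base, and all but 1 of these could be assigned to 1 parent. The GCACC type had 415 fragments and the GCGAG type 192. The GCACC type made up 93.96% of GCC reads in UNM (exact 95% interval 92.6 to 95.1) and 91.9% in BCP (91.7 to 92.0). The GCGAG type made up 5.76% (4.62 to 7.10) and 8.13% (7.96 to 8.31). The GCACC type thus carried most of the reads at either stage.

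GCC fragments took a larger part of the tRNA fragments in bicellular pollen than in microspores. In UNM they made up 0.210% (0.199 to 0.221) of 686685 listed reads, in BCP 1.89% (1.88 to 1.91) of 4958412, which is 9.03-fold as much (8.57 to 9.52). With 1 library per stage there is no replicate check and no test between stages. The intervals cover counting error only, since no molecular identifiers are described and PCR copies of a molecule are counted as further reads. In such bulk samples, fewer cells of a type and less RNA per cell cannot be told apart, and a share of listed reads also rises when other fragments fall. Among 49 anticodons with at least 50 summed reads, GCC ranked 24 by share in UNM, 9 in BCP and 6 by the ratio of the shares. The other glycine anticodons did not move this way. Fragments of TCC had 6.10% and 6.68%, a ratio of 1.095 (1.08 to 1.11), and those of CCC 0.0814% and 0.0988%, a ratio of 1.21 (1.11 to 1.33). Within all glycine fragments, GCC therefore went from 3.28% (3.12 to 3.45) to 21.8% (21.7 to 21.96).

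Both parents held larger shares in BCP. The GCACC type went from 0.197% to 1.74% of listed reads, 8.83-fold (8.37 to 9.32), and the GCGAG type from 83 reads (0.0121%) to 7633 reads (0.154%), 12.7-fold (10.3 to 16.01). The intervals of these ratios do not overlap, and they rest on few UNM reads for the GCGAG type.

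Lengths shifted upward among the GCC fragments. Of GCC reads in UNM, 28.3% were at most 20 nt long (26.02 to 30.7), 33.6% had 21 to 29 nt (31.2 to 36.1) and 38.1% had at least 30 nt (35.5 to 40.6). In BCP these shares were 3.18% (3.07 to 3.29), 21.6% (21.4 to 21.9) and 75.2% (74.9 to 75.5). The median read was 22 nt long in UNM and 31 nt in BCP. The most frequent lengths were 22 nt in UNM, with 22.8% of GCC reads against 5.14% in BCP, and 31 nt in BCP, with 26.3% against 16.3% in UNM. The 30-nt reads made up 11.8% and 19.8%. Reads of 34 nt made up 4.31% in UNM and 16.9% in BCP, and reads of 24 nt 1.39% and 5.24%.

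Long fragments were frequent for GCC at either stage. By the share of reads of at least 30 nt, GCC ranked 4 of the 49 anticodons in UNM and 7 in BCP. The TCC fragments had 16.6% (16.2 to 16.96) and 46.7% (46.5 to 46.9) at this length, and the CCC fragments 24.2% (20.7 to 27.9) and 49.9% (48.5 to 51.4). GCC lay above both in either library, with intervals that do not overlap theirs.

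Since all tRNA fragments together were longer in BCP, with 4.04% of listed UNM reads and 50.8% of BCP reads at 30 nt or more, GCC was also set against reads of its own length. Among listed reads of 30 to 31 nt, GCC held 13.7% in UNM (12.5 to 15.0) and 13.9% in BCP (13.8 to 14.0), a ratio of 1.01 (0.919 to 1.12). Within that class the lengths went opposite ways, from 11.2% (9.62 to 12.9) to 17.3% (17.1 to 17.5) at 30 nt and from 16.5% (14.6 to 18.5) to 12.1% (11.99 to 12.3) at 31 nt. Among those of 13 to 20 nt it held 0.0636% and 0.146%, 2.29-fold higher (2.06 to 2.54), and among those of 34 to 36 nt 0.718% and 2.58%, 3.59-fold higher (2.89 to 4.51). The share was lower in BCP at 17 nt, with 0.362% (0.284 to 0.456) and 0.105% (0.0932 to 0.118). At 37 to 40 nt it was 0.401% (0.130 to 0.934) and 0.0457% (0.02499 to 0.0767), on 5 and 14 GCC reads. Those of UNM had 37 or 40 nt and those of BCP 39 nt, so this class does not compare like lengths. With the GCC share of each length in BCP weighted by the lengths of the UNM list, GCC would hold 0.615% of reads in BCP, 2.93-fold above UNM. With the UNM shares weighted by the lengths of the BCP list, the ratio was 1.38. The 9.03-fold difference is thus smaller at equal lengths, by an amount that depends on which library sets the lengths.

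Reads of 22 and 24 nt share their sizes with plant microRNAs and small interfering RNAs, which the lists do not hold. Among the listed tRNA fragments, GCC supplied a sizeable part at 22 nt in both libraries and at 24 nt in BCP only. At 22 nt GCC held 20.6% of all listed reads in UNM (18.6 to 22.6) and 22.95% in BCP (22.4 to 23.5). At 24 nt it held 1.18% in UNM (0.720 to 1.81) and 21.6% in BCP (21.1 to 22.1). At 22 nt, the GCACC fragment from base 1 had 326 of 328 GCC reads in UNM and 2734 of 4822 in BCP. Another GCACC fragment, from base 10, had 1 and 1911 of them. At 24 nt, the GCGAG fragment from base 1 had 14 of 20 GCC reads in UNM and 4604 of 4924 in BCP. These fragments are described below.

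Fragments of the GCACC type that begin at base 1 form a nested series, and its main steps are shown because the difference between the stages lies in where the series stops. Capitals mark the bases added since the line above.
17 nt: gcaccagtggtctagtg
18 nt: gcaccagtggtctagtgG
21 nt: gcaccagtggtctagtggTAG
22 nt: gcaccagtggtctagtggtagA
25 nt: gcaccagtggtctagtggtagaATA
28 nt: gcaccagtggtctagtggtagaataGTA
30 nt: gcaccagtggtctagtggtagaatagtaCC
31 nt: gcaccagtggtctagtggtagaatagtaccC
32 nt: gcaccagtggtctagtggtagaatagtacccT
33 nt: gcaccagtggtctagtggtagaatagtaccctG
34 nt: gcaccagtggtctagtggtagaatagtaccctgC
35 nt: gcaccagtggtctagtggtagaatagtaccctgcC
The series held 1023 UNM reads, 75.6% of the reads of this tRNA (73.2 to 77.9), and 75721 BCP reads, 87.8% (87.6 to 88.0). It was listed at 21 lengths in UNM and 24 in BCP. In UNM its reads ended mainly at base 22, in the D arm, and at bases 30 and 31, where the anticodon stem passes into the loop, and 10.5% of them ended at base 17 or 18 (8.65 to 12.5). In BCP they ended mainly at bases 30, 31 and 34, and 0.226% at base 17 or 18 (0.193 to 0.262).

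The 22-nt step had 326 reads in UNM, where it was the most abundant GCC sequence, and 2734 in BCP. Its share of listed reads was nearly level, 1.16-fold higher in BCP (1.04 to 1.31), while its share of the series went from 31.9% (29.02 to 34.8) to 3.61% (3.48 to 3.75). Its last base lies in the 3′ strand of the D arm.

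The 30-nt step, which ends with the anticodon stem, had 159 UNM reads and 17871 BCP reads, 15.6-fold higher (13.3 to 18.3). The 31-nt step, which reaches the first base of the anticodon loop, had 230 and 24472, 14.7-fold higher (12.9 to 16.9), and was the most abundant GCC sequence of BCP. For each read of the 31-nt step there were 0.691 reads of the 30-nt step in UNM and 0.730 in BCP. Together they made up 38.03% of the series in UNM (35.04 to 41.1) and 55.9% in BCP (55.6 to 56.3).

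The 34-nt step, which ends after the second base of the anticodon, differed more between the stages than the steps of 33 and 35 nt. It had 30 UNM reads and 15804 BCP reads, 73.0-fold higher (51.1 to 108), and went from 2.93% of the series (1.99 to 4.16) to 20.9% (20.6 to 21.2). Reads of the 34-nt step per read of the 31-nt step were 0.130 in UNM and 0.646 in BCP. The 33-nt step, which ends after the first base of the anticodon, had 29 reads and 2701, 12.9-fold higher (8.96 to 19.3). The 35-nt step, which holds the whole anticodon, had 20 and 1638, 11.3-fold higher (7.32 to 18.6). The 32-nt step had 22 and 5880, 37.01-fold higher (24.4 to 59.1). The series ended there in practice, with no read at 36 nt in either list and 1 read at 39 nt in BCP.

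The steps between the D arm and the anticodon loop were scarce in UNM. The 28-nt step had 4 UNM reads and 1751 BCP reads, 60.6-fold higher (23.6 to 223), and the 25-nt step had 17 and 745, 6.07-fold higher (3.76 to 10.5). Steps that end at bases 26 to 29 had between 1 and 6 reads each in UNM and between 119 and 1751 in BCP.

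The shortest steps went the other way. The 17-nt step had 50 UNM reads and 75 BCP reads, 4.81-fold lower in BCP by share (3.30 to 6.98), and the 18-nt step had 57 and 96, 4.29-fold lower (3.03 to 6.01). The 21-nt step had 34 and 263, a ratio of 1.07 (0.748 to 1.58), which does not exclude an equal share. Steps of 13 to 16 nt had at most 4 reads each in UNM and at most 21 in BCP, so 5′ fragments of this tRNA below 17 nt were few, at lengths where the lists hold many fragments of other tRNAs.

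Fragments of the GCGAG type that begin at base 1 form a series with other stops. Capitals mark the bases added since the line above.
18 nt: gcgagcgtagttcaatgg
24 nt: gcgagcgtagttcaatggTAAAAC
25 nt: gcgagcgtagttcaatggtaaaacA
30 nt: gcgagcgtagttcaatggtaaaacaTCTCC
33 nt: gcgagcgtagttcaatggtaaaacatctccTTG
34 nt: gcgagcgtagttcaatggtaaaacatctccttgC
Reads from base 1 of this tRNA were 70 in UNM and 6295 in BCP. The 24-nt step, which ends with the D arm, had 14 UNM reads and 4604 BCP reads, 45.5-fold higher (27.1 to 83.4), and made up 14 of the 70 UNM reads of the series (a share of 11.4 to 31.3% by its interval) and 73.1% of the BCP reads (72.02 to 74.2). It alone was the fifth most abundant GCC sequence of BCP. The 33-nt step had 2 reads and 679, 47.02-fold higher (12.97 to 389). The 18-nt step had 9 and 51, a ratio of 0.785 (0.383 to 1.81).

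The 34-nt step of this series had 32 reads in UNM, the most of the series there, and is not in the BCP list used here, nor is the 31-nt step, which had 3 reads in UNM. Both are in the TCP list. With 0 set to 3 counts the 34-nt step was 77.0-fold lower in BCP, a ratio of 0.01298 with an interval that reached 0.0169. Fragments that end at the same base but begin at base 2 or base 7 had 86 and 233 reads in BCP and no read in UNM. Of the 7 UNM sequences of 34 nt or more with the label GCC, 4 were not in the BCP list, while of the 164 of at most 33 nt, 30 were not, and none of those 30 had more than 4 reads. Values of the GCGAG type at 34 nt therefore rest on what the lists hold.

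Length moved differently in the GCGAG type than in the GCACC type. Reads of at least 30 nt went from 37.1% (34.5 to 39.7) to 80.1% (79.8 to 80.3) within the GCACC type, and from 55.4% (44.1 to 66.3) to 19.99% (19.1 to 20.9) within the GCGAG type. Without the 34-nt step the GCGAG type had 27.5% in UNM (15.9 to 41.7) and 19.99% in BCP, and those intervals overlap. Reads of 21 to 29 nt went from 34.2% to 16.7% within the GCACC type and from 25.3% (16.4 to 36.04) to 77.8% (76.8 to 78.7) within the GCGAG type. The share that ends at base 24 within the GCGAG type went from 16.9% (9.54 to 26.7) to 63.02% (61.9 to 64.1), and from 27.5% (15.9 to 41.7) without the 34-nt step.

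In BCP, most reads of the GCACC type that lack the first bases ended at bases 30, 31 and 34, where the series from base 1 also stopped. The leading fragments of BCP from 6 different starts are shown for that reason, each with its first base, and capitals mark anticodon bases.
Base 2: caccagtggtctagtggtagaatagtacc
Base 4: ccagtggtctagtggtagaatagtacc
Base 6: agtggtctagtggtagaatagtacc
Base 10: gtctagtggtagaatagtaccc
Base 18: gtagaatagtacc
Base 20: agaatagtaccctGC
Of GCACC reads that begin after base 1, those that end at base 30 or 31 went from 14.8% in UNM (11.2 to 19.2) to 65.4% in BCP (64.5 to 66.4), those that end at base 34 from 2.73% (1.25 to 5.11) to 12.03% (11.4 to 12.7), and those that end at base 22 from 19.4% (15.3 to 24.1) to 1.71% (1.47 to 1.97). These moves had the same direction as in the series that begins at base 1. In UNM the internal fragments also had ends that the series rarely had or could not have. Of their reads there, 13.3% ended at base 25 (9.86 to 17.5), against 1.66% of the series (0.971 to 2.65). A further 26.7% ended at base 62 or later (21.97 to 31.8), which fragments from base 1 cannot reach at 13 to 40 nt. In BCP these shares of the internal reads were 1.05% (0.867 to 1.27) and 5.65% (5.21 to 6.10). Internal fragments were 330 reads in UNM and 10539 in BCP.

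The fragment from base 10, where the D arm begins, to base 31 had 1 UNM read and 1911 BCP reads, 265-fold higher (47.4 to 10459). The next fragment with the same start, which stops at base 30, had no read in UNM and 345 in BCP. With 0 set to 3 counts it was 15.9-fold higher, with an interval from 12.9 upward. All fragments from base 10 had 2 reads in UNM and 2593 in BCP, 0.148% and 3.01% of the reads of this tRNA. The fragment from base 2 had 2 reads and 1032, 71.5-fold higher (19.7 to 591), and that from base 4 had 8 and 738, 12.8-fold higher (6.45 to 29.7). The fragment from base 6 had 2 reads and 363, 25.1-fold higher (6.91 to 208). The 13-nt fragment from base 18 had 1 and 356, 49.3-fold higher (8.79 to 1953), and the 15-nt fragment from base 20 had 1 and 353, 48.9-fold higher (8.72 to 1936). With 1 or 2 reads in UNM these ratios are known only within the wide intervals given.

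A pair of internal fragments that end at base 22 had lower shares in BCP. They are shown because they share that stop with the 22-nt step.
Base 6: agtggtctagtggtaga
Base 7: gtggtctagtggtaga
The fragment from base 7 had 31 UNM reads and 58 BCP reads, 3.86-fold lower in BCP (2.41 to 6.07), and that from base 6 had 13 and 44, 2.13-fold lower (1.05 to 4.03).

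Fragments from the 3′ side were few in both parents. Those of the GCACC type that begin at base 43 or later had 83 reads in UNM and 361 in BCP, 6.13% (4.92 to 7.55) and 0.418% (0.377 to 0.464) of the reads of this tRNA. Fragments that begin at the last anticodon base or just behind it, at bases 35 to 38, had no read in UNM and 10 in BCP for the GCACC type. The 5′ fragments of this type that end at bases 29 to 36 had 493 and 69060 reads. Starts slightly further on, at bases 40 to 42, had 5 reads in UNM and 226 in BCP for the GCACC type, and none in either library for the GCGAG type. For the GCGAG type, fragments that begin at bases 35 to 38 had 8 reads and 321, against 40 and 1102 reads of its 5′ fragments that end at bases 29 to 36. The leading ones of BCP run from just behind the anticodon, from base 36 or base 38.
Base 36 to 71: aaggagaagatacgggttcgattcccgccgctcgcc
Base 36 to 64: aaggagaagatacgggttcgattcccgcc
Base 38 to 71: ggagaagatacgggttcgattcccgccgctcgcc
The fragment from base 36 to base 71 had 1 UNM read and 70 BCP reads, 9.69-fold higher (1.68 to 388). Those from base 36 to base 64 and from base 38 to base 71 had no read in UNM and 75 and 72 in BCP. With 0 set to 3 counts they were 3.46-fold and 3.32-fold higher. Lengths near the upper end are listed unevenly. At 37 nt, the size of a piece from base 35 to base 71, UNM lists 13 sequences of all tRNAs and BCP 1. At 39 nt UNM lists none and BCP 286, and at 40 nt UNM lists 95 and BCP none. Whole 3′ pieces are therefore compared here with gaps in their lengths. Fragments that hold the whole anticodon were rare in both parents, with 2.59% (1.81 to 3.58) and 2.07% (1.98 to 2.17) of the reads of the GCACC type and 4.82% (1.33 to 11.9) and 2.33% (2.01 to 2.70) of those of the GCGAG type.

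A second base was read at position 56 of the GCACC type, in the T loop, where 25 fragments carried T56A. The name gives the base of the joined sequence first, then its position, then the base of the fragment. T was the more frequent base in the join, and neither base was checked against a gene sequence. The GCGAG type has A at base 56. Which base the tRNA gene holds, and whether T56A comes from another copy of the gene, was not tested. A pair that differs by this base only is shown, with the base in capitals.
T56: gTttcccggctggtgc
T56A: gAttcccggctggtgc
The first had 3 reads in UNM and 57 in BCP, and the second no read in UNM and 10 in BCP. Of all reads of the GCACC type over base 56, T56A made up 7 of 76 in UNM, 9.21% (3.78 to 18.1), and 43 of 591 in BCP, 7.28% (5.32 to 9.68), so no difference was detectable at this depth. In TCP, 27 fragments over base 56 were listed with T56 and none with T56A. These counts leave out the fragment of 13 nt that could be placed on either parent, which on the GCACC type would carry T56A. It had 4 reads in UNM and none in BCP and is listed in TCP. With it, T56A would make up 11 of 80 reads in UNM, 13.8% (7.07 to 23.3), and 1 fragment of TCP.

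For single fragments a minimum of 50 reads over UNM and BCP was set, and one was called higher or lower in BCP when its shares differed by a ratio of 2 or more with an interval that left out 1. Of the 538 GCC fragments read in UNM or BCP, 63 reached the minimum, and of these 52 were higher, 4 lower and 7 neither. Over all 1794 sequences of the lists that reached it, 68.2% were higher and 17.2% lower. The median log2 ratio was 3.13 for GCC and 2.01 for all. Among fragments of at least 30 nt, 14 of 14 GCC fragments were higher, as were 482 of 521 of all tRNAs, with medians of 3.79 and 3.15. Among those of at most 20 nt, 7 of 15 GCC fragments were higher and 4 lower, against 367 and 272 of 831 of all tRNAs. The minimum favours the deeper library. Of the 63, 16 had no read in UNM and another 22 had 1 to 3, and among the 25 with at least 4 UNM reads 15 were higher. With shares taken of GCC reads in place of all listed reads, 8 of the 63 were higher and 10 lower. All 4 lower fragments, of 16 to 18 nt, belong to the GCACC type and are named above. Larger falls lay below the minimum. It left out the 34-nt GCGAG step described above and a 13-nt GCACC fragment from base 13 to base 25. That 13-nt fragment had 26 UNM reads and 3 BCP reads, 62.6-fold lower in BCP (19.2 to 323). With a minimum of 10 summed reads, 164 fragments were compared, of which 56 were higher and 11 lower.

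Diversity depended on the depth that was held equal. At the UNM total of listed reads, BCP would be expected to hold 257 distinct GCC sequences, against 171 in UNM. At the UNM total of GCC reads it would be expected to hold 92.7. The 3 most abundant sequences took 49.7% of GCC reads in UNM and 61.9% in BCP, and the 10 most abundant 67.9% and 84.5%. Sequences found in 1 of the libraries only held 5.56% of UNM and 4.53% of BCP GCC reads.

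The TCP list was compared by presence. Of the UNM fragments with the label GCC, 105 of 171 (61.4%) were listed in TCP, and of the BCP fragments 222 of 504 (44.0%). Over all tRNAs these shares were 54.96% and 41.9%. Seen from TCP, 34.9% of its 301 GCC fragments were in UNM and 73.8% in BCP, a list that is longer. The shared sequences held 92.6% of UNM and 96.4% of BCP GCC reads. All 18 UNM fragments with at least 10 reads were listed in TCP. Over all tRNAs, 82.2% of UNM sequences with 10 to 99 reads and 97.6% of those with 100 or more were listed.

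Presence in TCP went with read number, as it did over all tRNAs, and with the start of the fragment. Of GCC fragments with 1 read, 47.2% of those in UNM and 22.9% of those in BCP were listed in TCP. Over all tRNAs these shares were 37.8% and 16.8%. Of BCP fragments with 10 to 99 reads, 84 of 120 GCC fragments (70%) were listed, against 75.6% over all tRNAs. Of fragments that begin at base 1, 32 of 33 in UNM (96.97%) and 35 of 43 in BCP (81.4%) were in TCP, against 72 of 137 (52.6%) and 187 of 461 (40.6%) of those that begin later. At 1 to 9 reads the counts were 17 of 18 from base 1 and 69 of 134 from later starts in UNM, and 4 of 11 and 103 of 335 in BCP. At 10 to 99 reads in BCP they were 11 of 12 and 73 of 108, and at 100 reads or more 20 of 20 and 11 of 18. Over all tRNAs, whatever the start, 47.9% of UNM and 28.1% of BCP fragments with 1 to 9 reads were listed in TCP. Of the 26 lengths of the GCACC series from base 1, 24 were listed in TCP, and of the 22 of the GCGAG series 17. These counts include lengths known from TCP only, 36 and 40 nt of the GCACC series and 15 nt of the GCGAG series. The series from base 10, with 2593 reads in BCP, had 1 of its 16 members in TCP, the 22-nt fragment shown above. The series from base 18 had 2 of 10, and 1 of these is known from TCP only. Among BCP fragments with at least 100 reads, 31 of 38 GCC fragments (81.6%) were in TCP, against 94.996% over all tRNAs. The 7 that were not begin at bases 10, 18, 20 and 42 of the GCACC type and at base 7 of the GCGAG type.

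TCP listed 70 GCC fragments found in neither other list, 32 of the GCACC type and 38 of the GCGAG type. Among them are 2 that extend the GCACC series past the anticodon, shown with the anticodon in capitals.
36 nt: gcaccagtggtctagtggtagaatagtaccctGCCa
40 nt: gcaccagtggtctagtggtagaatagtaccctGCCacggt
At 36 nt TCP lists 182 sequences of all tRNAs against 52 in UNM and 75 in BCP, and 40 nt is not listed in BCP, so a difference between stages cannot be read from them.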

How the data were processed

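Small RNAs of 13 to 40 nt (UNM) or 13 to 41 nt (BCP, TCP) were sequenced in 1 library per stage, per the labels. Per the submitters' processing notes Bowtie 1.1.2 was used. Its settings, the adapter trimming and the reference it mapped to were not given in the sources used here. A sequence and its anticodon stand beside a count in the deposited lists, per the file headers. The count the authors deposited for UNM and BCP was used as raw reads per distinct sequence. The column deposited for TCP was treated as a score of unknown meaning and used for presence only.

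Shares carry 95% intervals by the exact Clopper-Pearson method, and ratios between them intervals from the exact conditional binomial (Python 3.11.15, SciPy 1.17.1, pandas 2.3.3). A 0 was set to 3 counts, which is 0.208% of GCC reads in UNM and 0.00320% in BCP. Intervals and floors cover counting error only. No GCC sequence had another label in another list. Parents were joined by the most frequent next base and cut where the acceptor stem closed, and fragments were placed exactly or with 1 substitution. The calls were tested on simulated counts with known ratios. The joining was tested on fragments tiled evenly over a random sequence, without gaps or conflicting bases. That test does not cover thin or conflicting stretches such as those of the joins here. Expected numbers of distinct sequences at a smaller depth are hypergeometric.

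The members, lists and tests were chosen with earlier results of these data known. Named are the 10 most abundant GCC sequences of either library, the 5 largest rises and the falls (4 were called), the leading sequence of the 6 largest start families (same first 13 nt) and the steps of series with at least 5% of GCC reads. The other sequences printed or named (3′ side, T56A, TCP only, stops of the shorter series, the 13-nt fragment from base 13) were chosen after their values were seen.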

Additional observations from a re-analysis of the deposited data

How the results depend on the processing

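All values here come from 1 library per stage, so no replicate could be left out. No paired analysis was possible because each stage has 1 library and the labels give no replicate numbers. With 46 alternatives over 8 results, 24 left the result as it was. A ratio was counted so when it stayed within the interval of the main result. Some of the 24 were fixed in advance. Those that only required the label GCC in every list compared could not differ, since no GCC sequence had another label. The log2 ratio of the GCC share, 3.17, was 3.81 without Asp reads, 3.39 without the most abundant GCC sequence of each library, 3.31 with a minimum of 10 reads and 0.13 by distinct sequences. Weighted by the UNM lengths it was 1.55 and by the BCP lengths 0.46, both chosen after seeing the data. The log2 ratio of GCC reads of at least 30 nt, 0.98, was 0.17 by distinct sequences and 1.11 without the GCGAG type, also chosen after seeing the data. That of reads of at most 20 nt, -3.16, was -3.37 without the most abundant sequences and -0.56 by distinct sequences. The share of the GCACC series from base 1 had a log2 ratio of 0.18, which was 0.46 without the most abundant sequences, 0.053 with a minimum of 10 reads and -1.37 by distinct sequences. It turned direction there because each step counts once. Of the 52 fragments higher in BCP and 4 lower, there were 27 and 0 at 200 summed reads, 8 and 10 by share of GCC reads, and 21 and 2 with BCP scaled to the UNM total, while 11 were lower from 10 summed reads on. With at least 10 reads, 18 of 18 UNM and 115 of 158 BCP fragments were listed in TCP. Ratios of GCC fragments are limited by the 1440 UNM reads, 83 of them of the GCGAG type.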

Other observations

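The numbers that TCP lists beside the GCC fragments reached 20, in 14 sequences, and 129 sequences had 1. Those of the GCGAG type reached 6. The rice gene table lists 26 nuclear genes of tRNA-Gly (GCC), on 10 chromosomes. What the TCP numbers count was not tested.

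Fragments of the GCGAG type with another base, T28A in the anticodon stem, were also listed. They had 1 read in BCP and none in UNM, and TCP listed 3 of them. Where this base comes from was not tested.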
